A study of Mus musculus with 8 samples.

Results

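Conjugating enzymes of phase II metabolism were examined in single-nucleus RNA-seq data from mouse kidney. The set comprised the glutathione S-transferases whose symbols begin with Gsta, Gstk, Gstm, Gsto, Gstp or Gstt, the UDP-glycosyltransferases (Ugt) and the cytosolic sulfotransferases (Sult), each with a number after these letters. A gene was kept if it had at least 20 unique molecular identifiers (UMIs, which count captured transcripts) over the nuclei that passed quality control. Of 64 features with such symbols, 50 were kept, out of 32285 features in all and 22730 with at least 20 UMIs. They were 19 Gst, 17 Ugt and 14 Sult genes. Just inside the limit lay Sult1e1, the oestrogen sulfotransferase, and Sult3a2, each with 22 UMIs, and just outside it Gsta1 and Ugt2a1, each with 16.

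Kidneys of 8 male mice on a C57BL/6J background were profiled, 1 mouse per library and 2 libraries in each of 4 groups defined by genotype and time of sacrifice. Ctrl mice were Bmal1lox/lox littermates, and cKOt mice were Bmal1lox/lox/Pax8-rtTA/LC-1, in which doxycycline induces Cre recombinase in Pax8-expressing renal tubular cells, so that cells without Pax8 are not targeted. All mice, controls included, drank doxycycline at 2 mg/ml with sucrose at 20 mg/ml for 2 weeks from 8 weeks of age and were sacrificed at 14 weeks. The time points were ZT4 and ZT16, with lights on at ZT0 and off at ZT12. The libraries held 8758 to 10975 nuclei each after quality control, 81391 in all, with 36548873 to 54500820 UMIs per library. Conjugating enzymes took 431998 of 377882072 UMIs, which is 0.114%, and between 0.102% and 0.137% of each library. At the level of whole genes, Arntl was at 31.5 and 27.0 CPM (UMIs scaled to a common library size) in the Ctrl ZT4 libraries, 125.8 and 134.5 in Ctrl ZT16, 245.5 and 168.0 in cKOt ZT4 and 245.6 and 221.3 in cKOt ZT16. Counts over the whole gene do not single out the deleted part, so these values do not check the genotype labels. Libraries shared at most 43 barcodes.

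Phase II enzymes attach a polar group to a drug, toxin, hormone or lipid, which makes it easier to excrete. Glutathione S-transferases add the tripeptide glutathione, most UDP-glycosyltransferases add glucuronic acid from UDP-glucuronate, and sulfotransferases add a sulfonate group from the donor PAPS. In the kidney these reactions are best known from the proximal tubule, which takes up organic anions from blood and secretes conjugates into urine.

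Promoters are shown for the gene called between genotypes, Gsta3, and for 3 neighbouring Ugt1a genes that were nearly absent from 1 library. The 250 bases before the start site were taken from RefSeq (GRCm38.p6, plus strand for all 4 genes), at chr1:21240335-21240584 for Gsta3 (whose start site in the promoter table lies 20 bases inside the gene interval given with its values), chr1:88055161-88055410 for Ugt1a10, chr1:88070529-88070778 for Ugt1a9 and chr1:88087578-88087827 for Ugt1a8. Capitals mark matches, on either strand, to the core of the antioxidant response element (TGACNNNGC) or to the half-site of HNF1 (GTTAAT).
Gsta3: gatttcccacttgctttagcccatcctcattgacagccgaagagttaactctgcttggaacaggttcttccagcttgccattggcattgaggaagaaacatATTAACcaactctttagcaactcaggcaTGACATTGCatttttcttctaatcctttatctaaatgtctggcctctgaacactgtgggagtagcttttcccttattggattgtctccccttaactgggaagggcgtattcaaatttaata
Ugt1a10: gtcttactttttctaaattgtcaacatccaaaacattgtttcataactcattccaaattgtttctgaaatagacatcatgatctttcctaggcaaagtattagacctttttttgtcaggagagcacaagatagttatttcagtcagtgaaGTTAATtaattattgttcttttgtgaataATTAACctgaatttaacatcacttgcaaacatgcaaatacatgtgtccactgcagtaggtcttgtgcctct
Ugt1a9: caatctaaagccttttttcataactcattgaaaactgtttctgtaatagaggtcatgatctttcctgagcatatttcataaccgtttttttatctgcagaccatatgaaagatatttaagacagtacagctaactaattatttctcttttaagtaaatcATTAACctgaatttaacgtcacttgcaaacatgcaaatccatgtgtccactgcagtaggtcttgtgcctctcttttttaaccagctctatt
Ugt1a8: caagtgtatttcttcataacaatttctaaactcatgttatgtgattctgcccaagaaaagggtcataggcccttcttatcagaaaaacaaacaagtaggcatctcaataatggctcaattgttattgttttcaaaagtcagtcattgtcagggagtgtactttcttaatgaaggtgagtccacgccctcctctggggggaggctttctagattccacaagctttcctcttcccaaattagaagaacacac
The Gsta3 window held TGACNNNGC once, 121 bases before the start, and GTTAAT once on the minus strand, 149 bases before it. Ugt1a10 held GTTAAT on each strand, 100 and 71 bases before its start, Ugt1a9 held it once, 91 bases before, and Ugt1a8 had no match. The Ugt1a windows were compared by global alignment with gaps allowed, in which gaps were penalized and mismatches were not. Identical bases were 75.2% of the 250 for Ugt1a10 and Ugt1a9, against 43.6% for Ugt1a10 and Ugt1a8 and 52.0% for Ugt1a9 and Ugt1a8. Unrelated windows were not aligned, so these shares have no background beside them. Of the 45 genes of the set with a promoter in the table, 12 held GTTAAT, 3 held TGACNNNGC (Gsta3, Gstm5 and Gstm7) and none held the E-box CACGTG. Over the 27025 genes in the table these letters occurred in 7.49%, 11.5% and 6.86% of windows of the same length. The motifs do not overlap in these windows, and a match is not a bound site.

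By UMIs, the Ugt genes made up 62.5% of the set, the Gst genes 23.9% and the Sult genes 13.6%. The 12 genes with the most UMIs held 89.0%, while 12 genes with under 200 UMIs each held 0.213% together. Ugt8a, which transfers galactose to ceramide in the first step of galactolipid synthesis, had the most UMIs (83252). It was followed by Ugt3a2 (63037), a member of a family that uses sugars other than glucuronic acid, and by Ugt2b38 (62830). Among the Gst genes the theta-class Gstt2 led with 42366 UMIs, and among the Sult genes Sult1d1, a sulfotransferase of phenols and catecholamines, with 30607. These are counts of RNA captured with 3′ chemistry, which differ between genes with the efficiency of capture. The Ugt1a genes share their last exons, and several Gst, Ugt2b and Sult2a genes have close paralogs, so the division of UMIs within these families is uncertain.

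Nuclei of the proximal convoluted tubule (PCT, 14232) and proximal straight tubule (PST, 11763) held 69.7% ± 3.87 (SD, n = 8 libraries, range 64.4% to 74.5%) of the UMIs of conjugating enzymes. The same nuclei were 32.1% ± 3.75 of all nuclei and held 46.5% ± 3.83 of all UMIs and 87.4% ± 1.73 of the UMIs of 8 proximal tubule reference genes, transporters such as Slc34a1 and Slc22a6. The conjugating enzymes thus stood between the transcriptome as a whole and the transporters of this segment. A clustering on 50 principal components, which left more nuclei unnamed, lowered all of these shares, to 44.9% ± 17.1 for conjugating enzymes, 29.8% ± 8.93 for all UMIs and 61.1% ± 17.9 for the reference genes, in the same order. Clusters had been built without the 50 genes, from the same nuclei as the levels, so the levels across classes are a description and were not tested. Of the 38 genes with at least 200 UMIs, 12 had their highest mean in PCT, 6 in PST and 20 in another class, over the 4 Ctrl libraries. The highest class was also found under the other clustering, with doublets left out, with the mean taken over nuclei, or without 1 Ctrl library. In these settings 32 to 36 of the 38 genes kept their class.

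**Figure D1:**
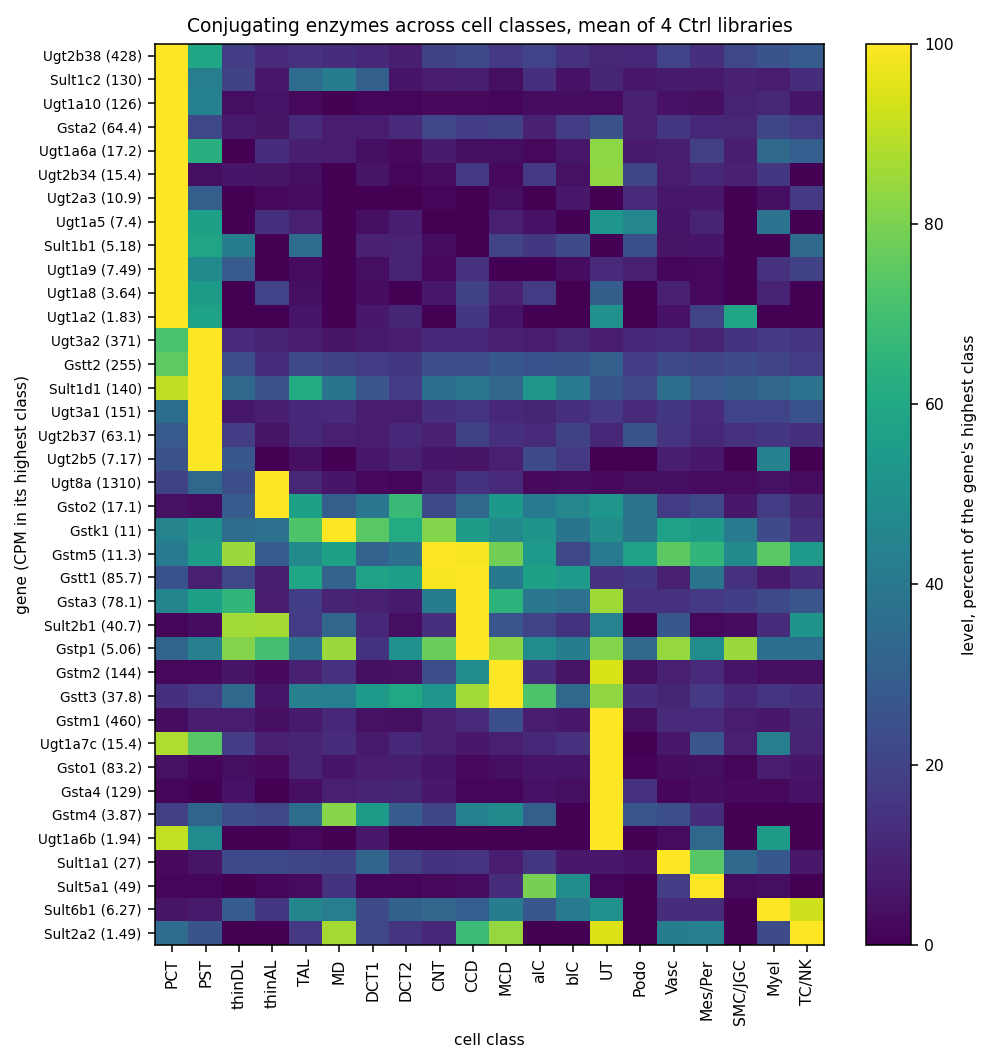
Heat map of 38 conjugating enzymes (rows, with the CPM in the highest class in brackets) across 20 cell classes (columns), where the colour gives the mean of 4 Ctrl libraries as a percentage of the gene's highest class. Ugt1a10, Ugt2b38 and Sult1c2 peak in PCT and Ugt3a1 and Ugt2b37 in PST, whereas Ugt8a peaks in the thin ascending limb (1310 CPM) and Gstm1 in the urothelium (460 CPM).

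Several abundant Ugt genes differed in level between the segments of the proximal tubule. Ugt2b38 was at 428 ± 210 CPM (SD, n = 4) in PCT and 253 ± 125 in PST, and Ugt1a10 at 126 ± 73.9 and 55.4 ± 36.2, each higher in PCT in all 4 Ctrl libraries. Ugt3a1, at 54.9 ± 18.9 in PCT and 151 ± 46.0 in PST, and Ugt2b37, at 17.9 ± 11.6 and 63.1 ± 32.0, were higher in PST in all 4. Ugt3a2 was at 267 ± 74.3 in PCT and 371 ± 87.8 in PST. Chosen after the values were seen, Ugt2b34 showed the greatest ratio between the segments, with 15.4 ± 3.35 CPM in PCT and 0.563 ± 0.244 in PST, 27.4-fold higher in PCT.

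Within PST the clusters were also unlike each other. Cluster 8, whose leading genes include the PST markers Cyp7b1 and Slc22a19, held Ugt2b38 at 42.0 ± 10.7 CPM and Ugt1a10 at 7.94 ± 4.81, against 341 ± 164 and 74.9 ± 48.0 in cluster 9. For Ugt3a1 the order was the opposite, 227 ± 80.5 in cluster 8 and 120 ± 34.5 in cluster 9. Ugt3a2 was at 407 ± 73.7 and 358 ± 97.9, a difference smaller than either SD. Both clusters came from the same libraries, and they were not compared within each library. Cluster 9, the largest PST cluster in each Ctrl library (730 to 1016 nuclei), had no PST marker among its leading genes, and neither had cluster 4. Of the PST markers, 4 were enriched in cluster 9 and 6 in cluster 8. For Ugt2b38 and Ugt1a10, cluster 9 lay nearer to PCT cluster 6 (458 ± 196 and 111 ± 64.3 CPM) than to cluster 8.

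Among the Gst genes, Gsta2, an alpha-class enzyme, was at 64.4 ± 19.6 CPM in PCT and 13.9 ± 4.22 in PST, while Gstt2 was at 192 ± 148 and 255 ± 150 and Gsta3, also of the alpha class, at 35.5 ± 7.83 and 44.2 ± 15.8. Gsta2 was higher in PCT and Gstt2 in PST in all 4 Ctrl libraries, and Gsta3 in neither. Of the sulfotransferases, Sult1c2 was at 130 ± 30.3 CPM in PCT and 55.7 ± 30.5 in PST, higher in PCT in all 4 libraries, and Sult1d1 was at 126 ± 37.5 and 140 ± 43.2, with no common direction.

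**Figure D2:**
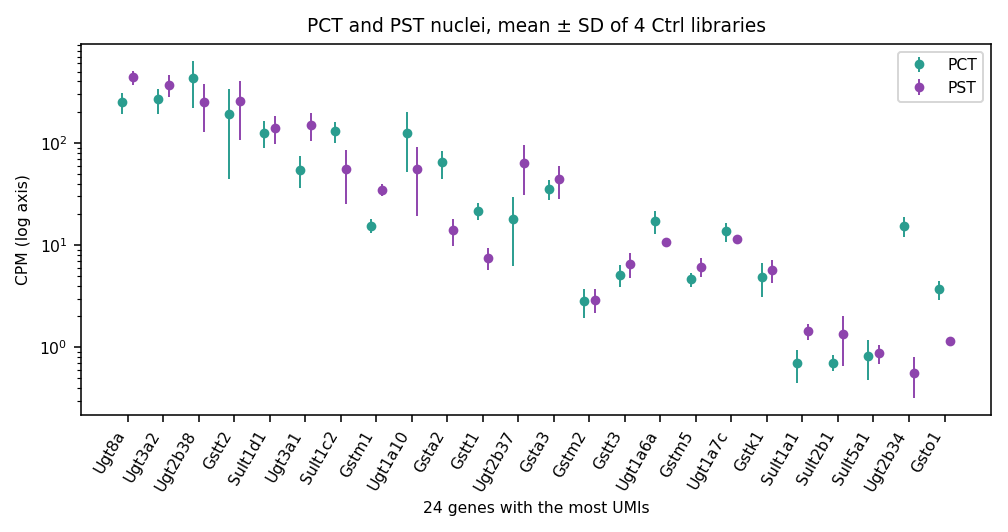
Level in CPM on a log axis of the 24 conjugating enzymes with the most UMIs in PCT (green) and PST (purple) nuclei, as mean and SD of 4 Ctrl libraries. Gsta2 and Ugt2b34 lie higher in PCT, Ugt3a1 and Ugt2b37 higher in PST, and for Sult1d1 and Gstk1 the error bars overlap.

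The other 20 genes had their highest mean outside the proximal tubule, and for most of them the Ctrl ranges overlapped with those of the next class. For Ugt1a7c and Ugt1a6b, PCT was that next class. Ugt1a7c was at 15.4 ± 5.09 CPM in the urothelium and 13.6 ± 2.91 in PCT, and Ugt1a6b at 1.94 ± 1.52 and 1.76 ± 1.08. PCT and PST nuclei held 80.1% of the UMIs of Ugt1a7c and 81.6% of those of Ugt1a6b. Ugt8a reached 1310 ± 26.6 CPM in the thin ascending limb (range 1294 to 1350 over the 4 Ctrl libraries), against 439 ± 72.6 in PST, the next class, so that the ranges did not overlap. Gstm1, of the mu class, stood at 460 ± 81.2 CPM in the urothelium and 111 ± 14.8 in the medullary collecting duct (MCD), and Gsto1, an omega-class thiol transferase, at 83.2 ± 27.7 in the urothelium and 7.88 ± 1.92 in the thick ascending limb (TAL). Gstm2 was at 144 ± 41.5 in MCD and 136 ± 35.7 in the urothelium, means that differed by less than either SD.

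In the distal nephron Gstt1 had nearly equal levels in the cortical collecting duct (CCD, 85.7 ± 4.12 CPM) and the connecting tubule (CNT, 85.0 ± 6.29), and lower ones in TAL (50.5 ± 6.51), PCT (21.6 ± 4.12) and PST (7.51 ± 1.82). Gsta3 was highest in CCD (78.1 ± 15.8) and urothelium (66.9 ± 17.4), and Sult2b1, which sulfonates cholesterol, in CCD (40.7 ± 12.1) and the thin ascending limb (35.2 ± 7.84). In both cases the ranges of the first pair of classes overlapped. Gstm5 was at 11.3 ± 2.06 in CNT and 11.1 ± 6.00 in CCD. Gstk1, of mitochondria and peroxisomes, was at 11.0 ± 7.52 in the macula densa and 8.96 ± 2.44 in CNT. Gstp1 was at 5.06 ± 1.79 in CCD and 4.30 ± 3.502 in the macula densa. For each of these genes the means differed by less than either SD. The macula densa class held 262 nuclei, of which 32.8% were called doublets, against 0.768% to 10.9% in the other classes compared, and without doublets Gstk1 was highest in CNT and Gstp1 in macula densa.

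Outside the tubule, Sult1a1, which sulfonates simple phenols, was at 27.0 ± 8.68 CPM in vascular endothelium and 20.0 ± 5.92 in mesangial cells and pericytes. Sult5a1 was at 49.0 ± 12.1 in mesangial cells and pericytes, with 38.96 ± 9.54 in type A intercalated cells. Sult6b1 was at 6.27 ± 3.08 in myeloid cells and 5.82 ± 4.22 in T and NK cells, and Sult2a2 at 1.49 ± 2.98 in T and NK cells, which came from 1 library with 5.97 CPM, the other 3 being at 0. Sult2a3, with 115 UMIs and chosen after its values were seen, had 89 of them (77.4%) in type B intercalated cells, which were 1.27% of nuclei. Its level there was 45.1 and 10.7 CPM in Ctrl ZT4, 11.3 and 11.6 in Ctrl ZT16, 19.2 and 6.41 in cKOt ZT4 and 6.44 and 5.04 in cKOt ZT16, while the next class, myeloid cells, had 0.438 CPM in Ctrl.

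RNA freed from broken cells gives every class some reads of abundant genes. The 8 proximal tubule reference genes stood in the other classes at 6.55% to 16.1% of their proximal tubule level. Ugt3a2 stood at 6.48% to 18.2% and Ugt1a10 at 0.644% to 21.0%, ranges that overlap with that of the reference genes. Sult1d1 stood at 18.5% to 62.9%, Gstt2 at 19.2% to 49.0% and Ugt2b38 at 14.4% to 41.4%, above the reference genes in each of these classes. The part of free RNA in these levels was not tested.

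Between genotypes, 1 gene of the set was called by edgeR over both time points, with all libraries and with low counts filtered out, where 0.988% of all genes were called in whole kidney, 1.28% in PCT and 1.71% in PST. Gsta3 (ENSMUSG00000025934, chr1:21240565-21265575 in GRCm38) fell in cKOt kidneys, in the whole organ and in both proximal segments. In whole-kidney sums its level, scaled by the trimmed mean of M values (TMM), was 22.0 and 27.9 CPM in Ctrl ZT4 and 35.5 and 26.9 in Ctrl ZT16, against 9.04 and 13.1 in cKOt ZT4 and 13.7 and 11.6 in cKOt ZT16. All 4 cKOt libraries lay below all 4 Ctrl libraries. Over both time points the log2 fold change was −1.24 (SE 0.16, edgeR quasi-likelihood test with Benjamini-Hochberg adjustment over all genes, adjusted p = 0.00739). At single time points the change was −1.17 (SE 0.22, adjusted p = 0.0745) at ZT4 and −1.30 (SE 0.22, adjusted p = 0.0790) at ZT16 in edgeR, neither past the limit of 0.05. In whole-kidney sums, fewer cells of a type and less RNA per cell cannot be told apart.

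In PCT nuclei Gsta3 was at 28.1 and 45.5 CPM in Ctrl ZT4 and 37.2 and 29.9 in Ctrl ZT16, against 6.95 and 13.8 in cKOt ZT4 and 9.69 and 11.0 in cKOt ZT16. In PST nuclei the values were 30.2 and 35.4, 62.2 and 45.7, 7.82 and 13.3, and 19.2 and 13.6 in the same order of groups. The genotypes did not overlap in either segment. Over both time points the log2 fold change was −1.76 (SE 0.23, edgeR adjusted p = 0.00462) in PCT and −1.67 (SE 0.20, adjusted p = 0.00339) in PST. In PST it passed the limit at ZT4 (−1.63, SE 0.29, adjusted p = 0.0466) and at ZT16 (−1.71, SE 0.28, adjusted p = 0.0404), and in PCT at ZT4 (−1.81, SE 0.32, adjusted p = 0.0386) but not at ZT16 (−1.70, SE 0.32, adjusted p = 0.0997). The difference between the time points was itself 0.11 (SE 0.45) in PCT and −0.07 (SE 0.39) in PST, far from the limit (edgeR adjusted p = 0.9999 in both). The calls at single times depended on single libraries and on settings. In PCT at ZT4 the call was lost without Ctrl ZT4 replicate 2, cKOt ZT4 replicate 1 or any 1 of the ZT16 libraries (edgeR adjusted p up to 0.257). In PST it was lost at ZT4 without any 1 library other than cKOt ZT4 replicate 2 (up to 0.262), and at ZT16 without any 1 library other than the cKOt ZT4 pair (up to 0.364). The PCT call at ZT4 was also lost with only the libraries compared (0.142), the PST call at ZT4 with only the libraries compared (0.150), without doublets (0.0566), with protein-coding genes only (0.0542) or with the replicate block (0.0799), and the PST call at ZT16 with the replicate block (0.0683, all edgeR adjusted p). The fall over both times passed the limit without any 1 of the 8 libraries.

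**Figure D3:**
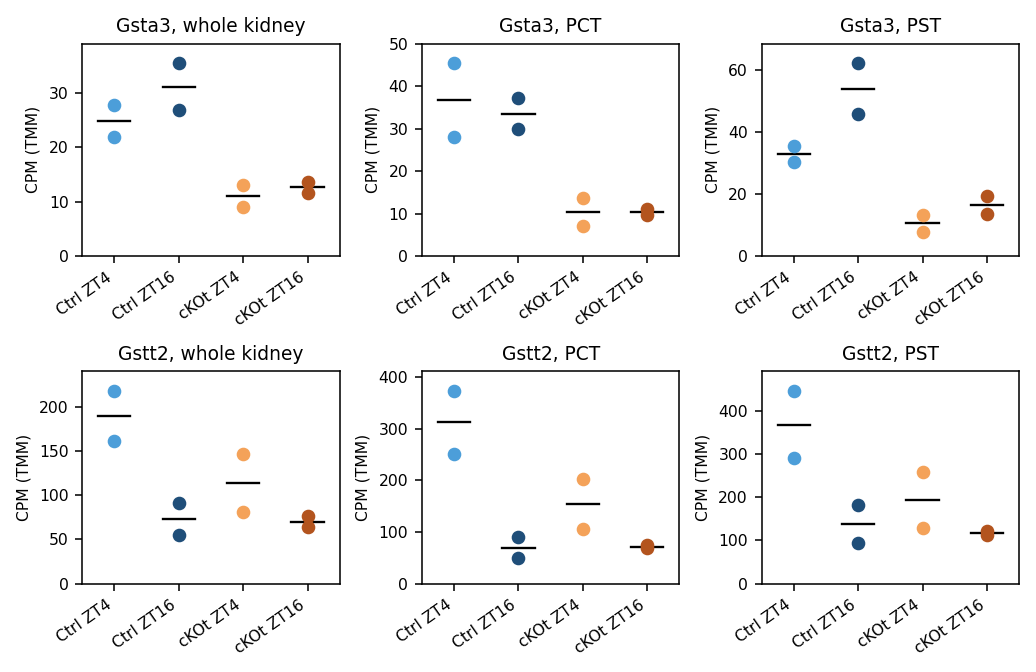
Level in CPM (TMM) of Gsta3 (top) and Gstt2 (bottom) in whole kidney, PCT and PST, with 1 point per library and a line at the mean of the 2 libraries of a group. All Gsta3 points of cKOt lie below those of Ctrl, whereas Gstt2 is highest in Ctrl ZT4 (251 and 373 CPM in PCT).

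The PCT and PST classes were not made up of the same clusters in both genotypes. PCT cluster 2 held 39 to 716 nuclei per library in Ctrl and 409 to 1584 in cKOt, PST cluster 4 held 21 to 300 and 886 to 1172, and PST cluster 9 held 730 to 1016 in Ctrl but 1 to 15 in cKOt. PCT cluster 6 (342 to 839 nuclei per library) and PST cluster 8 (393 to 521) were filled in every library. In cluster 6 Gsta3 ranged from 21.9 to 40.6 CPM in Ctrl and from 9.44 to 16.7 in cKOt, and in cluster 8 from 20.8 to 52.6 and from 3.91 to 8.68. The genotypes did not overlap in either cluster, and with these clusters alone the change over both times was −1.30 (SE 0.23, edgeR adjusted p = 0.0216) and −2.27 (SE 0.25, adjusted p = 0.00112). The call in PCT at ZT4 was lost in cluster 6 (−1.08, SE 0.33, edgeR adjusted p = 0.286).

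Gsta3 also fell in 2 other tubular classes, TAL and CNT. In TAL it ranged from 11.8 to 16.7 CPM in Ctrl and from 5.63 to 8.52 in cKOt, with a log2 fold change of −1.03 (SE 0.19, edgeR adjusted p = 0.0153, where 0.843% of all genes were called in either direction). In CNT it ranged from 21.7 to 43.0 in Ctrl and from 15.4 to 21.1 in cKOt, with −0.94 (SE 0.22, edgeR adjusted p = 0.0369, 1.04% called). In type B intercalated cells it ranged from 26.7 to 35.8 in Ctrl and from 13.2 to 18.3 in cKOt, without overlap and not past the limit (−0.97, SE 0.28, edgeR adjusted p = 0.237). In CCD, the class with its highest level, the libraries overlapped (65.3 to 101.6 in Ctrl and 56.5 to 68.0 in cKOt; −0.37, SE 0.20, edgeR adjusted p = 0.823), as they did in the urothelium (54.4 to 85.4 and 46.3 to 81.9; −0.15, SE 0.26, adjusted p = 0.999). Vascular endothelium, which lacks the Pax8-driven Cre, had 8.33 to 14.03 CPM in Ctrl and 3.79 to 6.87 in cKOt, without overlap and not past the limit (−0.99, SE 0.23, edgeR adjusted p = 0.164), at 28.2% of the proximal tubule level, where the reference genes stood at 10.8%. Mesangial cells and pericytes had 11.3 to 16.8 and 5.11 to 7.95 (−1.14, SE 0.24, edgeR adjusted p = 0.217). The part of free proximal tubule RNA in these classes was not tested, and whether the change differs between classes was not tested either.

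For the set as a whole, 46 of the 50 genes had enough counts to be tested in whole kidney and 40 in PCT and in PST. Over both time points, edgeR called Gsta3 alone among the 46 genes in whole kidney, where 0.988% of all 21553 genes were called. The median log2 fold change of the 46 was −0.15, against −0.01 for all genes, and 13 were above 0. In PCT and PST, with 1.28% and 1.71% of all genes called, Gsta3 was again the 1 gene of 40, and the medians were −0.19 and −0.24, against 0.01 and 0.01 for all genes. These counts depended on the filter on low counts. Without it edgeR called Gsta3 alone of 50 genes in whole kidney (1.72% of all genes), but 9 of 50 in PCT (2.94%) and 9 of 50 in PST (4.17%), all of which had passed the filter. In PCT, Gsta3, Ugt1a10, Ugt1a7c, Ugt1a6a, Gstt1 and Gstt2 were then lower and Ugt2b5, Ugt2b37 and Ugt3a1 higher in cKOt. In PST, Gsta3, Ugt1a10, Ugt1a9, Ugt2b37, Ugt2b38, Sult1d1 and Gstt2 were lower and Gsta2 and Ugt3a1 higher. The SE of these unfiltered fits hardly followed each gene's own spread. In PCT it was 0.14 for Ugt1a10, Gstt2 and Ugt3a1 alike, though Ugt1a10 was at 158 and 0.825 CPM in cKOt ZT16. These calls thus do not measure the spread between mice of each gene. At an unadjusted p below 0.05 there were 5 genes in whole kidney, 8 in PCT and 7 in PST with the filter. Here and below, the share of all genes at this unadjusted limit was not counted, so these counts have no background beside them. With the filter, DESeq2 also called Gsta3 alone in each, with 2.42%, 2.12% and 3.06% of all genes. Ugt3a1, at 58.0, 61.1, 36.2 and 80.3 CPM in Ctrl and 100.4, 63.2, 93.7 and 107 in cKOt, had a log2 fold change of 0.62 (SE 0.23, edgeR adjusted p = 0.395) in whole kidney. Gstt1 in PCT was at 24.4, 21.6, 22.8 and 16.3 in Ctrl and 11.7, 15.9, 9.35 and 16.2 in cKOt, without overlap by a narrow margin (−0.68, SE 0.20, edgeR adjusted p = 0.203).

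**Figure D4:**
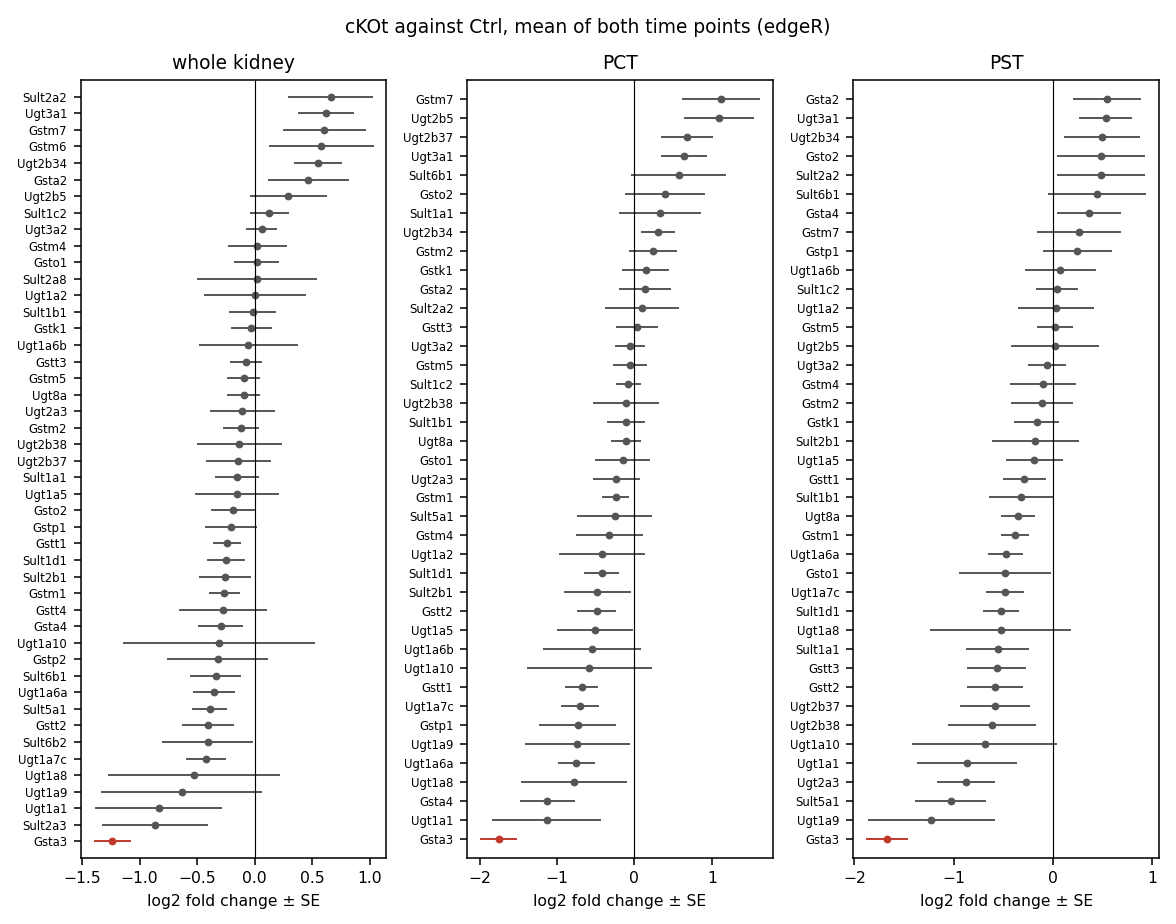
log2 fold change (points) with SE (lines) of cKOt against Ctrl over both time points for each tested conjugating enzyme, in whole kidney (46 genes), PCT (40) and PST (40), with called genes in red. Gsta3 is the 1 red point in each panel, at −1.24, −1.76 and −1.67.

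At ZT4 alone, none of the 46 genes was called in whole kidney by edgeR (0.431% of all genes called), 6 had an unadjusted p below 0.05 and DESeq2 called 2, Gsta3 and Sult5a1, with 1.77% of all genes. Sult5a1 was at 6.11 and 6.64 CPM in Ctrl ZT4 and 3.74 and 3.25 in cKOt ZT4 (DESeq2 log2 fold change −0.86, adjusted p = 0.0368). In PCT and PST, Gsta3 was the gene called, with 0.676% and 0.574% of all genes in edgeR and 1.55% and 1.44% in DESeq2. At ZT16, edgeR called none in whole kidney (0.139% of all genes) and none in PCT (0.213%), with 5 and 6 genes at an unadjusted p below 0.05, and DESeq2 called Gsta3 in both (0.914% and 0.738% of all genes). In PST edgeR called Gsta3 (0.539% of all genes) and DESeq2 (1.49% of all genes) also Sult1d1, at 143 and 201 CPM in Ctrl ZT16 and 96.8 and 69.2 in cKOt ZT16 (log2 fold change −1.05, adjusted p = 0.00938 in DESeq2 and 0.151 in edgeR). Without the filter on low counts edgeR called 8 genes in PCT and 6 in PST at ZT4 (2.48% and 2.47% of all genes) and 4 and 2 at ZT16 (1.38% and 2.58%).

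Between time points, Gstt2 (ENSMUSG00000033318, chr10:75831842-75837419 in GRCm38) was lower at ZT16 than at ZT4 in PCT nuclei of Ctrl mice. It was at 251 and 373 CPM in Ctrl ZT4, 89.5 and 48.7 in Ctrl ZT16, 105 and 203 in cKOt ZT4 and 75.2 and 67.9 in cKOt ZT16. Both Ctrl ZT4 libraries lay above the other 6, and in both genotypes the time points did not overlap. The log2 fold change between time points was −2.17 (SE 0.36, edgeR adjusted p = 0.0299) in Ctrl, where it was the 1 gene called of 40 and 0.607% of all genes were called. Over both genotypes it was −1.64 (SE 0.25, edgeR adjusted p = 0.0144), again the 1 gene called, with 1.63% of all genes. DESeq2 called it in both contrasts, with 1.85% and 2.72% of all genes. In cKOt the change was −1.11 (SE 0.35, edgeR adjusted p = 0.372), and the difference between genotypes in the change was 1.06 (SE 0.49, edgeR adjusted p = 0.973), so this fit did not show the change to differ between genotypes. Without the filter on low counts the same difference was called (1.06, SE 0.28, edgeR adjusted p = 0.0187). The SE of that fit hardly followed each gene's own spread between libraries. The call in Ctrl was lost without any 1 of the 4 Ctrl libraries or either cKOt ZT16 library (adjusted p up to 0.186), and with the replicate block (−2.13, edgeR adjusted p = 0.0573), and that over both genotypes without Ctrl ZT4 replicate 2 or either cKOt ZT16 library (up to 0.0711). In PCT cluster 6 alone the values were −1.99 (SE 0.31, edgeR adjusted p = 0.0299) in Ctrl and −1.42 (SE 0.22, adjusted p = 0.0161) over both genotypes. In the PCT class, Gstt2 was higher in replicate 2 than in replicate 1 in both ZT4 groups, and lower in both ZT16 groups. The main fit took all libraries as independent, and pairing within a time point was not tested.

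In PST, Gstt2 was at 289 and 446 CPM in Ctrl ZT4, 181 and 94.0 in Ctrl ZT16, 129 and 257 in cKOt ZT4 and 122 and 111 in cKOt ZT16. In whole kidney the values were 161 and 218, 91.3 and 55.3, 80.9 and 146, and 76.3 and 63.6 in the same order. Both Ctrl ZT4 libraries again lay above the other 6, without a call by edgeR. The log2 fold change in Ctrl was −1.42 (SE 0.39, edgeR adjusted p = 0.279) in PST and −1.37 (SE 0.31, adjusted p = 0.147) in whole kidney, and over both genotypes −1.07 (SE 0.27, adjusted p = 0.162) and −1.04 (SE 0.22, adjusted p = 0.0692). DESeq2 called all 4 of these.

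With all libraries in 1 model and the filter on low counts, no other gene of the set was called between time points by edgeR. Without it, 6 genes were called in PCT and 7 in PST in Ctrl (2.95% and 2.27% of all genes). In Ctrl, the counts were 0 of 46 in whole kidney (0.204% of all genes called, 4 at an unadjusted p below 0.05, 1 called by DESeq2 with 1.41% of all genes) and 0 of 40 in PST (0.243%, 6 and 2, with 1.06%). The second DESeq2 call in PST was Sult1c2, at 52.9 and 99.0 CPM in Ctrl ZT4 and 40.7 and 27.9 in Ctrl ZT16 (log2 fold change −1.14, DESeq2 adjusted p = 0.0197, edgeR adjusted p = 0.225). In cKOt, edgeR and DESeq2 called none of the set in whole kidney, PCT or PST, where edgeR called 0.00928%, 0.0125% and 0% of all genes and 2, 2 and 0 genes of the set had an unadjusted p below 0.05. DESeq2 called 0.979%, 0.663% and 0.272% of all genes there. Over both genotypes edgeR called 0 of 46 in whole kidney (0.891% of all genes, 3 at an unadjusted p below 0.05) and 0 of 40 in PST (0.450%, 5), and DESeq2 called Gstt2 in each, with 3.09% and 1.62% of all genes. No gene of the set was called for a difference between time points in the genotype effect by edgeR or DESeq2 with all libraries and the filter on low counts (edgeR called 0.0139%, 0.0438% and 0% of all genes in whole kidney, PCT and PST, and 5, 2 and 3 genes of the set had an unadjusted p below 0.05, while DESeq2 called 0.213%, 0.275% and 0.101% of all genes). Without that filter edgeR called this difference for 5 of 50 genes in PCT (0.979% of all genes), Ugt1a10, Ugt1a9, Ugt2b37, Sult1d1 and Gstt2, and for Ugt1a10 and Sult1c2 in PST (0.692%). For Ugt1a10 in whole kidney it was called at −4.32 (SE 0.30, edgeR adjusted p = 0.00442) without cKOt ZT16 replicate 1 and at 2.94 (SE 0.22, adjusted p = 0.00701) without replicate 2, opposite in sign.

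The Ugt1a locus stood apart in 1 library. Its genes have separate first exons, each with its own promoter, and join them to common last exons on chromosome 1 (GRCm38, plus strand), with starts from 88055411 for Ugt1a10 to 88211959 for Ugt1a1 and a last base at 88220002. In whole-kidney sums Ugt1a10, the member of the locus with the most UMIs, was at 57.6 and 66.1 CPM in Ctrl ZT4, 19.6 and 19.2 in Ctrl ZT16, 24.1 and 26.7 in cKOt ZT4, 60.7 in cKOt ZT16 replicate 1 and 0.395 in cKOt ZT16 replicate 2. The last value was 18 UMIs, against 831 to 3376 in the other 7 libraries, and 1.48% of their median. In PCT nuclei the 2 libraries of cKOt ZT16 had 158 and 0.825 CPM, and in PST nuclei 59.9 and 0.852.

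The genes that start next to Ugt1a10, described after their values were seen, had the same pattern. Ugt1a9 (start at 88070779) had 1 UMI in cKOt ZT16 replicate 2 and 43 to 203 in the other libraries, and Ugt1a8 (start at 88087828) had 0, which allows up to 3 UMIs or 0.0659 CPM for counting error, against 21 to 114. In the same library Ugt1a7c (start at 88095001) was at 76.3% and Ugt1a6a (start at 88134809) at 71.1% of the median of the other 7, with 201 and 210 UMIs. Ugt1a6b, Ugt1a5 and Ugt1a2 were at 37.4%, 39.2% and 33.2%, with 10, 52 and 11 UMIs, and Ugt1a1 at 10.6% with 2. In whole kidney these 4 genes lay below each of the other 7 libraries, while Ugt1a7c and Ugt1a6a lay within their range. In PCT nuclei Ugt1a7c (48.2% of the median) and Ugt1a6a (53.5%) also lay below each of the other 7, and in PST nuclei (87.9% and 85.1%) both lay within their range.

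**Figure D5:**
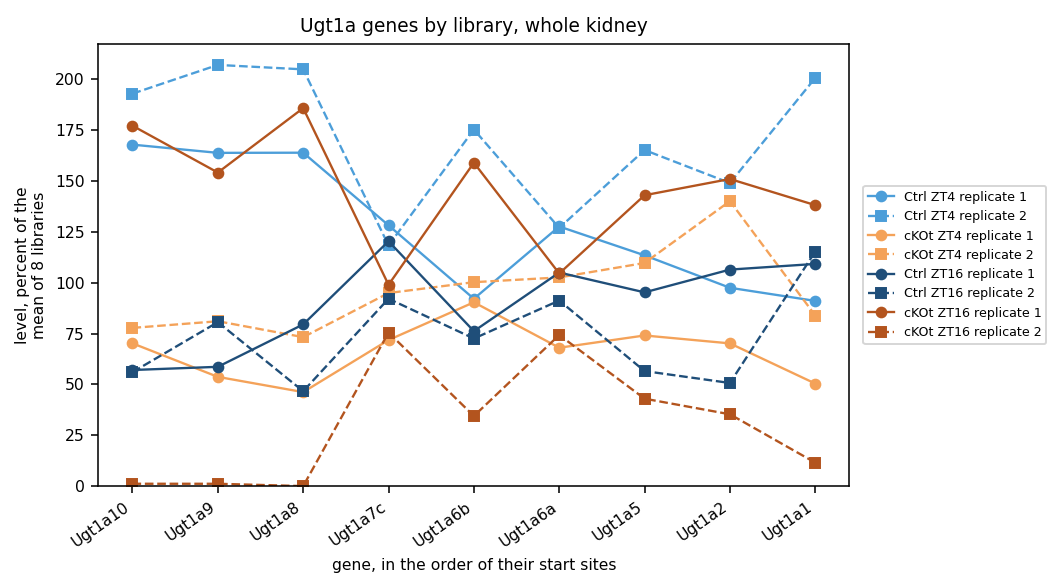
Level of 9 Ugt1a genes, ordered along chromosome 1, in each of the 8 libraries of whole kidney, as a percentage of the mean of the 8. cKOt ZT16 replicate 2 lies near 0 for Ugt1a10, Ugt1a9 and Ugt1a8, and at 76.3% and 71.1% of the median of the other libraries for Ugt1a7c and Ugt1a6a.

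Comparisons of Ugt1a10 depended on the cKOt ZT16 pair. With all libraries the log2 fold change between genotypes over both times was −0.31 (SE 0.83, edgeR adjusted p = 0.949) in whole kidney. Without replicate 2 it was 0.18 (adjusted p = 0.761) and without replicate 1 it was −3.45 (adjusted p = 3.05e-05). At ZT16 it was 1.65 (SE 0.16, edgeR adjusted p = 0.0173) without replicate 2 and −5.61 (SE 0.27, adjusted p = 0.000106) without replicate 1, opposite in sign. Contrasts without cKOt ZT16 libraries also moved, since all groups share 1 estimate of the spread. In Ctrl the change from ZT4 to ZT16 was −1.67 (SE 1.19, edgeR adjusted p = 0.692) with all libraries, −1.67 (SE 0.14, adjusted p = 0.00349) without replicate 2 and −1.67 (SE 0.14, adjusted p = 0.00362) without replicate 1, and the genotype difference at ZT4 was −1.29 (adjusted p = 0.844, 0.0105 and 0.0123 in the same order). In these libraries, both Ctrl ZT4 values lay above both Ctrl ZT16 and both cKOt ZT4 values. A fit that leaves 1 library in a group assumes that it varies like the others.

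Several abundant genes varied as much between libraries of a group as between groups. Ugt2b38 was at 252 and 142 CPM in Ctrl ZT4, 97.3 and 233 in Ctrl ZT16, 232 and 79.8 in cKOt ZT4 and 160 and 187 in cKOt ZT16, with a ratio of up to 2.90 within a group. Gsta2 was at 23.9 and 19.9, 27.6 and 11.6, 16.1 and 49.3, and 23.4 and 26.9 in the same order, with up to 3.07. Ugt8a was among the steadier genes, at 191 to 294 in Ctrl and 194 to 229 in cKOt, and so was Gstm1, at 35.6 to 51.4 and 29.5 to 39.1. With both time points pooled, the genotypes overlapped in range for each of these 4 genes, though Gstm1 did not overlap at ZT16, and in these whole-kidney sums no contrast passed the limit in edgeR, with or without the filter on low counts. Summed over the set, the level was 966 to 1323 CPM in Ctrl and 1073 to 1146 in cKOt.

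The genes that supply or extend these reactions were compared by lists. Of 4 genes of glutathione synthesis and recycling (Gclc, Gclm, Gss and Gsr), 4 of the breakdown of its conjugates, 3 of UDP-glucuronate supply, 4 of PAPS supply, 13 other conjugating enzymes (10 of them tested in PCT and PST) and 7 efflux pumps for conjugates, edgeR called none in whole kidney, PCT or PST, between genotypes over both times or between time points in Ctrl. In PST, where 1.71% of all genes were called, 2 genes of the regulatory lists were called between genotypes. Srxn1, sulfiredoxin, 1 of 8 target genes of the transcription factor NRF2, was at 3.70 and 3.85 CPM in Ctrl ZT4, 7.46 and 5.35 in Ctrl ZT16, 2.79 and 1.96 in cKOt ZT4 and 2.35 and 1.70 in cKOt ZT16, and fell by 1.16 on the log2 scale (SE 0.23, edgeR adjusted p = 0.0460). The list's median was −0.04, and none of its other 7 genes was called. Nr1i2, the pregnane X receptor, 1 of 12 xenobiotic regulators, was at 6.09 and 5.43, 4.46 and 3.83, 9.44 and 10.7, and 8.37 and 11.2 in the same order and rose by 1.02 (SE 0.17, edgeR adjusted p = 0.0208), with a list median of −0.02. For both genes the genotypes did not overlap, and in PCT neither was called (edgeR adjusted p = 0.760 and 0.801). The PST class was made up of different clusters in the 2 genotypes. Values of Srxn1 and Nr1i2 in cluster 8 alone or without single libraries are not given here. Of the 8 proximal tubule reference genes none was called in PCT or PST between genotypes by edgeR, and Slc7a8, an amino acid transporter, rose in whole kidney over both times (0.81, SE 0.14, edgeR adjusted p = 0.0348). Slc6a19, also an amino acid transporter, fell from ZT4 to ZT16 in Ctrl, 2.72-fold (SE 0.18 on the log2 scale, edgeR adjusted p = 0.0219) in whole kidney, 2.82-fold (SE 0.21, adjusted p = 0.0170) in PCT and 2.55-fold (SE 0.20, adjusted p = 0.0411) in PST. Genes of adrenal cortex summed to 5.29 to 8.59 CPM per library with 1 of 6 at 0, and 6 genes of liver to 40.1 to 85.3 CPM.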

How the data were processed

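Nuclei from 8 kidneys were sorted by DAPI and profiled with 10x Genomics 3′ chemistry. The authors processed reads with bcl2fastq 2.20 and Cell Ranger 7.1.0 and deposited raw UMI counts per gene and barcode, not normalized. As reference genome, mm10 stands in the methods and GRCm39 in the submitters' processing notes. Coordinates were taken from RefSeq (GRCm38) by gene symbol. The treatment of intronic reads was not found in the sources used here.

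Quality control kept 81391 of 82784 barcodes, those reaching 500 genes and 800 UMIs with mitochondrial UMIs of 2% or less. Nuclei were clustered by the Leiden method in igraph 0.11.9 on 2000 variable genes (1000 principal components, 20 neighbours, resolution 2.2). All 64 features with matching symbols were left out of these genes, and clusters were named by marker genes. Doublets called with Scrublet in scanpy 1.11.5 (5.37% of nuclei) were kept, and 4231 nuclei stayed unnamed. UMI counts were added up over each library, and over each of 20 classes that had 10 or more nuclei in every library. edgeR 4.0.16 (TMM, quasi-likelihood) fitted all 4 groups in 1 model to genes, mitochondrial ones excepted, with 5 or more counts in both libraries of any group. The Benjamini-Hochberg adjustment ran over all genes tested and a limit of 0.05. DESeq2 1.42.0 was an alternative. With 2 libraries a group, p-values measure the spread between mice. Without the filter on low counts, the SE in PCT and PST hardly followed each gene's own spread, so those p-values do not. On simulated whole-kidney counts of 21553 genes, edgeR called 46% of 2-fold and 96% of 4-fold changes, and 8.97% of its calls were false. In PCT (15985 genes) these were 39%, 100% and 9.74%, and in PST (16896 genes) 34%, 99% and 5.67%.

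The enzymes and lists were chosen with earlier results of these data known. Named were genes called in whole kidney, PCT or PST, the 12 with the most UMIs, the gene with the most UMIs of each subfamily and of each other class, and those nearest the limit of 20 UMIs. Others were chosen after their values were seen, as stated there.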

Additional observations from a re-analysis of the deposited data

How the results depend on the processing

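The fall of Gsta3 over both time points passed the limit under every alternative run, 15 of 15 in whole kidney (log2 fold change −1.38 to −1.12) and 16 of 16 each in PCT (−2.06 to −1.30) and PST (−2.67 to −1.51). Calls at single time points and counts moved more. Contrasts are given in the order ZT16 against ZT4 in Ctrl and in cKOt, cKOt against Ctrl at ZT4, at ZT16 and over both times, and ZT16 against ZT4 over both genotypes. Without the filter on low counts, the number of genes called was 1 in whole kidney in Ctrl, at ZT4, at ZT16 and between times over both genotypes; 6, 1, 8, 4, 9 and 2 in PCT, with 5 interactions; and 7, 1, 6, 2, 9 and 4 in PST, with 2 interactions. The share of all genes called was then 0.0819% to 2.33% in whole kidney, 0.979% to 4.18% in PCT and 0.692% to 4.17% in PST. DESeq2 called 1 in Ctrl, 2 at ZT4, 1 at ZT16 and 1 over both genotypes in whole kidney, 1 at ZT16 in PCT, and 2 in Ctrl, 2 at ZT16 and 1 over both genotypes in PST. A model of only the libraries compared called 1 in Ctrl in whole kidney, 2 in Ctrl and 1 at ZT16 in PCT, and 1 in Ctrl and 0 at ZT4 in PST, where 0.170%, 0.496%, 0.320%, 0.256% and 0.147% of all genes were called in the same order. The Ctrl calls were Ugt1a10, with Gstt2 in PCT, and in PCT at ZT4 Ugt1a10 (−1.49, edgeR adjusted p = 0.0380, 0.359% of all genes) was called in place of Gsta3. Leaving out doublets, or genes that do not code for protein, left 0 at ZT4 in PST (0.567% and 0.640% of all genes called). With 50 principal components, which left 13685 nuclei unnamed, PCT and PST held 44.9% of the set's UMIs and 2 of 34 genes were called between genotypes in PST, where 2.52% of all genes were called, and Gstm1 there turned from −0.39 to 0.074 (neither called). As a mean over nuclei the share was 55.5%. Clusters 6 and 8 alone, an alternative added after the data were seen, left 0 of 30 at ZT4 in PCT (0.636% of all genes called).

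Replicate numbers did not pair the samples across all 4 groups: correlations of same-numbered deviations ran from −0.34 to 0.53, where every pair had to be over 0.1. The pairs of genotypes within a time point were all positive (0.27 to 0.53). Pairing within a time point was not tested, since the replicate block fitted 1 replicate effect common to both times. The replicate block left 0 of the set's calls in PCT in Ctrl and 0 in PST at ZT4 and at ZT16 (0.701%, 0.675% and 0.515% of all genes called), and changed no other count of calls in the set. Over all genes it moved the calls in whole kidney from 44 to 21 in Ctrl and from 3 to 0 for the interaction, and in PCT from 2 to 1 in cKOt.

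Without 1 library, the counts ranged from 0 to 1 in each single contrast of whole kidney, PCT and PST and in the interactions of whole kidney and PCT. Between genotypes over both times they ranged from 1 to 4 in whole kidney and PCT and from 1 to 3 in PST, where 0.430% to 0.938%, 0.549% to 1.32% and 0.750% to 2.22% of all genes were called. The highest counts were those without cKOt ZT16 replicate 1, where Ugt1a10 and its neighbours were called (4 of 47, 4 of 40 and 3 of 42, with 0.505%, 0.603% and 0.785% of all genes). Between time points over both genotypes they ranged from 0 to 3 in whole kidney, 0 to 2 in PCT and 0 to 1 in PST (0.193% to 1.49%, 0.228% to 2.69% and 0.0515% to 1.09% of all genes), and in the single contrasts and interactions at most 1.25% of all genes were called. Without Ctrl ZT4 replicate 2, Ugt2b37 was called in PCT between genotypes (1.30, edgeR adjusted p = 0.0229). Ugt1a10 between genotypes in whole kidney turned from −0.31 to 0.18 without cKOt ZT16 replicate 2, and was −3.45 without replicate 1. The causes were not tested. With 2 mice per group, a gene that was not called is not shown to be unchanged.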
